A study of Mus musculus with 6 samples.

Results

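The arrestin-domain genes are the subject here: the thioredoxin-interacting protein gene Txnip, the arrestin domain containing genes Arrdc1, Arrdc2, Arrdc3 and Arrdc4, and the beta-arrestin genes Arrb1 and Arrb2. They were chosen by symbol, through GENCODE release M21, from a deposited table of 48440 Ensembl genes. All 7 were in the table, and all 7 passed the filter on low counts, which left 13314 genes for testing. RNA was sequenced from primary CD4+ T cells of the spleen and lymph nodes of wild-type mice. Both groups had been activated on plate-bound antibodies to CD3 and CD28 for 3 days and then grown in IL2 for 5 days, so that cells with an earlier activation were compared. The stimulated group (3 libraries) then met the antibodies to CD3 and CD28 again for 4 hours, which engages the T cell receptor. The unstimulated group (3 libraries) did not meet them again. The number of mice, their age and their strain are not given in the labels used here.

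Arrestins are adaptor proteins that bind cargo in the plasma membrane and decide where it goes. Beta-arrestins bind G protein-coupled receptors once receptor kinases have phosphorylated them, stop their coupling to the G protein and lead them to clathrin and the adaptor complex AP-2. The alpha-arrestins, to which Txnip and the Arrdc genes belong, share the fold but carry PPxY motifs that recruit ubiquitin ligases of the NEDD4 family to membrane cargo. TXNIP binds reduced thioredoxin and promotes the internalisation of glucose transporters, and its gene is a classic target of the glucose-responsive pair MondoA (gene Mlxip) and MLX and of FOXO factors.

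Promoter windows from RefSeq (GRCm38.p6, 250 bases before to 50 after the transcription start) matched 5 of the 7 members: Txnip, Arrdc1, Arrdc2, Arrdc3 and Arrdc4. Arrdc3 had 3 windows, which made 7 windows of members in all. Arrb1 and Arrb2 had no window and were not searched. The 3 windows below are shown because they belong to the member with the deepest fall (Txnip), to the member paired with it in glucose responses (Arrdc4) and to the member whose change did not pass the test (Arrdc2). They are written 5′ to 3′ on the strand of the gene, at chr3:96557707-96558006 (plus strand) for Txnip, chr7:68749189-68749488 (minus strand) for Arrdc4 and chr8:70839671-70839970 (minus strand) for Arrdc2. Capitals mark matches, on either strand, to CACGTG (the E-box core), to GTAAACA (the FOXO core), to CCAAT and to 2 copies of CACGNG that lie 5 bases apart, the layout of the carbohydrate response element.
Txnip: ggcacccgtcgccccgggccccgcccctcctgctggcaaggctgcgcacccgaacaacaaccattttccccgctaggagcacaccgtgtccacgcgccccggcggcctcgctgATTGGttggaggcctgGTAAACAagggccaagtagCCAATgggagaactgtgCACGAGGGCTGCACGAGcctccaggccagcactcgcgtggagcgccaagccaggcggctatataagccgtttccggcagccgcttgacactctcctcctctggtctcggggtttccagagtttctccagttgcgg
Arrdc4: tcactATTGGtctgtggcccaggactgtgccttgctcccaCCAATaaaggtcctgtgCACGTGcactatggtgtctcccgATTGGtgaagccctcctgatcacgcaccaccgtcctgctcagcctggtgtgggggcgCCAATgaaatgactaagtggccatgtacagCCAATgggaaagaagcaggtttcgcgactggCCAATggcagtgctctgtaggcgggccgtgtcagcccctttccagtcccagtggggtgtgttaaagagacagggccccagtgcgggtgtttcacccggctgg
Arrdc2: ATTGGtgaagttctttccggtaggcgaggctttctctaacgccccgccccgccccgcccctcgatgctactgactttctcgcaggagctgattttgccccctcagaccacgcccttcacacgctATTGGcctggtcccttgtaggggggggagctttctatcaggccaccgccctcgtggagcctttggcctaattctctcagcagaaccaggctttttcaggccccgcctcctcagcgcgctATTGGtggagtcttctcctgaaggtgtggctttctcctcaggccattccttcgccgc

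In the Txnip window the CACGNG pair read CACGAGGGCTGCACGAG and began 85 bases before the start, and a GTAAACA began 121 bases before it. This loose spelling of the pair was added to the search after the sequence had been seen. It occurred in 16 of all 32851 promoter windows (0.0487%), and a pair of CACGTG at the same distance in 0 of them. GTAAACA was found in 3.65% of all windows and among the members in that of Txnip. The Arrdc4 window held no such pair but 1 CACGTG, 193 bases before the start, a motif present in 7.15% of all windows. CCAAT, found in 37.4% of all windows, occurred 6 times in the Arrdc4 window, 3 times in that of Arrdc2 and 2 times in that of Txnip. It matched 5 of the 7 windows of members, among them windows of Arrdc3. TGANTCA, the AP-1 core (7.81% of all windows), matched none of the 7 windows of members, and GGAAAA, the NFAT core (23.4%), matched that of Txnip. The motifs overlap in no printed window. These matches describe letters in a window and were not tested as binding sites.

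Restimulation lowered 6 of the 7 arrestin-domain transcripts and raised none. In edgeR's quasi-likelihood test over all 13314 genes, at a Benjamini-Hochberg adjusted p of 0.05, 39.1% of all tested genes were lower in stimulated cells, 38.4% were higher and 77.5% were called in either direction. At a change of more than 2-fold, tested with edgeR's glmTreat, 5 members were lower and 0 were higher, where 18.2% of all tested genes were lower and 17.4% were higher. The median log2 fold change (stimulated over unstimulated) was -1.63 over the members and -0.043 over all tested genes. The libraries of the 2 groups did not overlap for the same 5 members: Txnip, Arrdc1, Arrdc3, Arrb1 and Arrb2. Over all tested genes 79.8% had groups that did not overlap in either direction, and 40.4% had every stimulated library below every unstimulated one. In bulk RNA, fewer cells that express a gene and less RNA per cell cannot be told apart. Levels were scaled to library size, so falls and rises are relative to the other RNA of a library. Total RNA per cell was not measured.

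**Figure D1:**
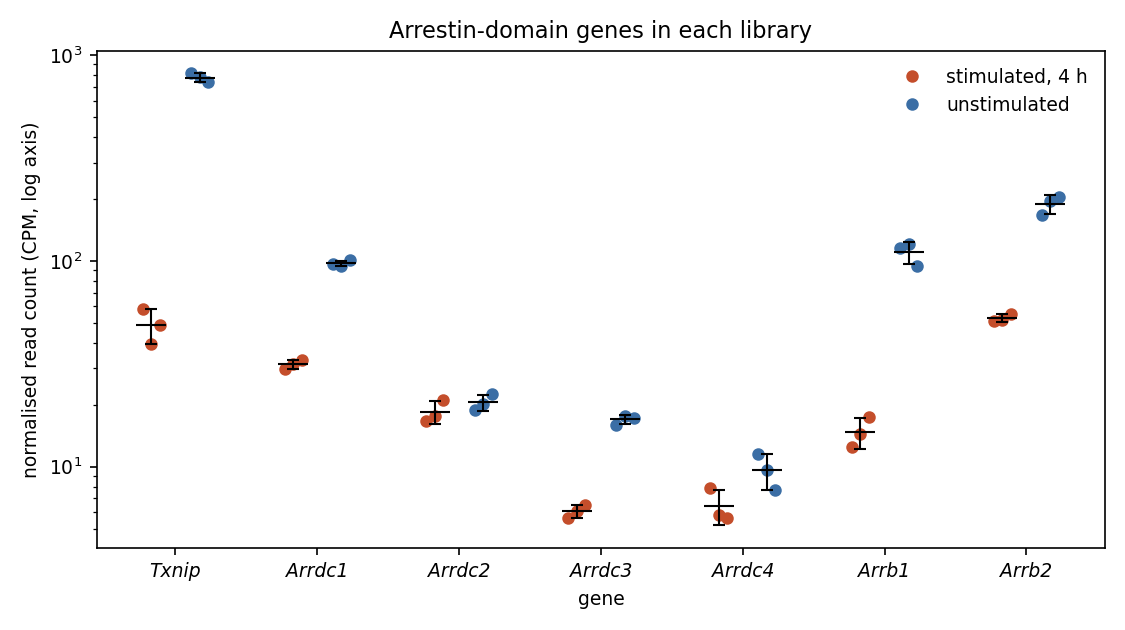
Normalised read counts (CPM, log axis) of the 7 arrestin-domain genes, with 1 point per library, stimulated (red) left of unstimulated (blue), and bars for mean ± SD of 3 libraries. The groups are apart for Txnip, Arrdc1, Arrdc3, Arrb1 and Arrb2 and overlap for Arrdc2 and Arrdc4.

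Levels are given as CPM, the reads of a gene scaled to a common library size with edgeR's TMM factors. The libraries held 29897720 to 30252923 counted reads, and 3 reads corresponded to about 0.1 CPM in each. The activation genes Il2, Cd69 and Nr4a1 rose, with Il2 at 251 ± 54.0 CPM in stimulated and 0.475 ± 0.117 CPM in unstimulated cells. Counts of markers called are to be read beside the shares over all tested genes, 38.4% higher and 39.1% lower. All 6 CD4 T cell markers were present and lower in stimulated cells, summing to 1591 to 1624 CPM, against 3280 to 3536 CPM in unstimulated cells. B cell markers were lower in 6 of 7 cases, with sums of 729 to 1281 CPM in stimulated and 1410 to 2865 CPM in unstimulated libraries, nearly all of it Ighm (963 and 1985 CPM). The call on Ighm (edgeR, adjusted p = 0.03) was lost under 5 of 15 alternatives, with 0.102 as the highest adjusted p under any setting. The B cell gene Cd22 was lower by a log2 fold change of -4.02. Myeloid markers summed to 2.03 to 3.08 CPM in stimulated and 11.0 to 12.7 CPM in unstimulated libraries, with 4 of 5 tested lower and Csf1r and Cd14 at or under 0.118 CPM on average in both groups. The CD8 markers summed to 20.7 to 25.8 CPM in stimulated and 20.9 to 24.8 CPM in unstimulated libraries, with 1 of 2 higher and 1 lower, the lower call being lost without stimulated replicate 2 or 3 or unstimulated replicate 2. The NK sum was 58.2 to 111.8 CPM in stimulated and 1.89 to 19.7 CPM in unstimulated libraries, nearly all of it Eomes, which activated T cells also express, with Ncr1 at or under 0.0316 CPM on average, and its call was lost without stimulated replicate 1 or unstimulated replicate 3. Erythroid markers summed to 0.213 to 0.827 CPM in stimulated and 0.605 to 1.89 CPM in unstimulated libraries. The part of these markers' cell types in the levels of the arrestin-domain genes was not tested.

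Txnip (ENSMUSG00000038393, chromosome 3, 96557957 to 96561883 in GRCm38, plus strand) had 58.4, 39.5 and 48.5 CPM in the stimulated libraries, against 814, 779 and 739 CPM in the unstimulated ones. Every stimulated library was far below every unstimulated one. The means were 48.8 ± 9.49 and 777 ± 37.3 CPM (SD, n = 3 each), a 15.9-fold fall (log2 fold change -3.99, SE 0.14; edgeR, adjusted p = 3.9e-08). Of the 13314 tested genes, 138 (1.04%) had a lower fold change than Txnip. The change rests on 1124 to 1649 reads per stimulated library and 23515 to 25569 per unstimulated one. An antisense gene on the opposite strand, Gm15441, shares 606 exonic bases with Txnip (19.4% of its exon length). It had 1, 1 and 3 reads in stimulated libraries and 10, 10 and 19 in unstimulated ones, and reads of the 2 strands cannot be told apart here.

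**Figure D2:**
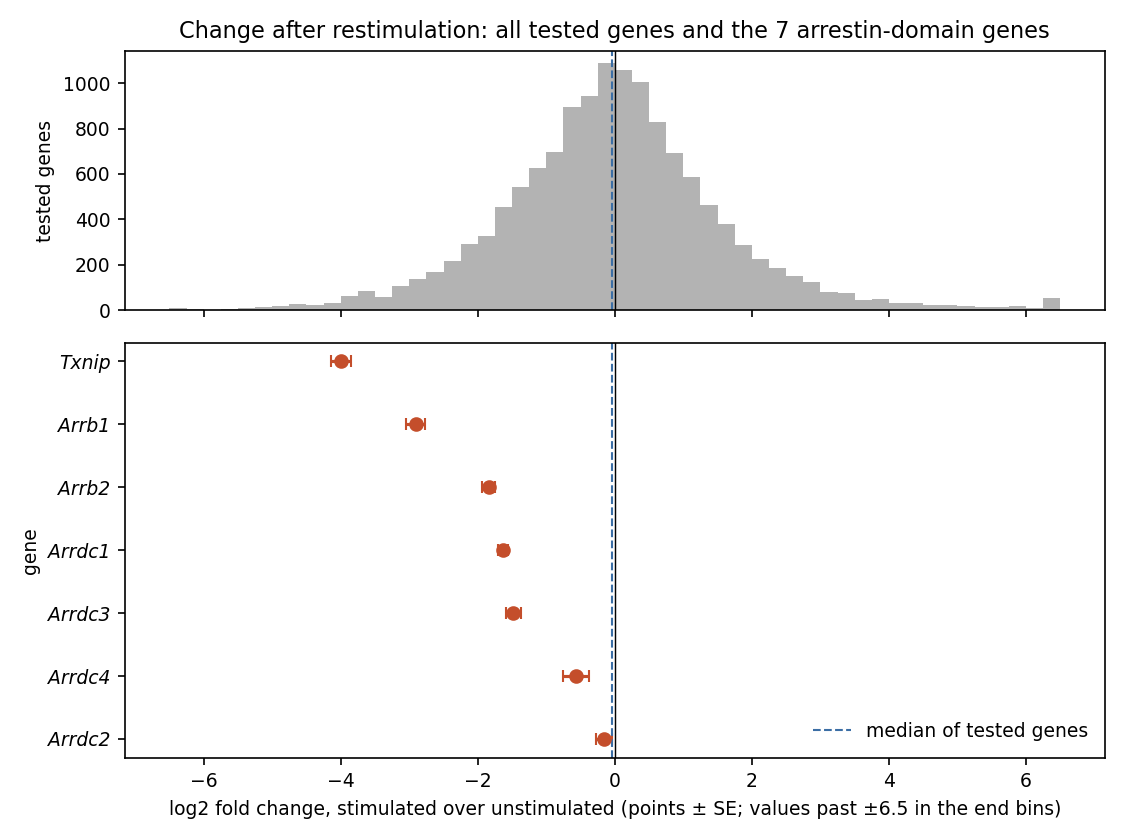
Change of each gene in stimulated relative to unstimulated cells, as log2 fold change. The upper panel is a histogram of all 13314 tested genes in bins of 0.25, and the lower panel gives the 7 members with their SE. The dashed line is the median of all tested genes, -0.043. Txnip lies at -3.99 and Arrb1 at -2.91, and Arrdc2 at -0.15 is near the median.

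Arrdc1, whose protein recruits the ESCRT component TSG101 and drives the budding of vesicles from the plasma membrane, was among the more abundant members per kilobase in both groups. Arrdc1 (ENSMUSG00000026972, chromosome 2, 24925352 to 24935252, minus strand) had 29.9, 31.4 and 32.9 CPM in stimulated libraries, against 96.8, 94.5 and 100.4 CPM in unstimulated ones. The libraries within each group lay close together and the groups were well apart. The fall was 3.10-fold (log2 fold change -1.63, SE 0.068; edgeR, adjusted p = 5.2e-08).

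Arrdc3 is known for its part in the traffic of beta-adrenergic receptors and integrins. Arrdc3 (ENSMUSG00000074794, chromosome 13, 80883384 to 80896042, plus strand) had 5.64, 6.11 and 6.48 CPM in stimulated libraries, against 15.9, 17.7 and 17.3 CPM in unstimulated ones. Low as it was, it did not overlap between groups, and it fell 2.79-fold (log2 fold change -1.48, SE 0.11; edgeR, adjusted p = 1.4e-06). Each library held 159 to 188 reads of Arrdc3 after stimulation and 501 to 559 in the unstimulated group.

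Arrdc4 shares with Txnip its response to glucose through MondoA and its effect on glucose uptake. Arrdc4 (ENSMUSG00000042659, chromosome 7, 68736995 to 68749241, minus strand) had 7.90, 5.79 and 5.65 CPM in stimulated libraries, against 11.5, 9.58 and 7.67 CPM in unstimulated ones. The highest stimulated library lay above the lowest unstimulated one, so the groups overlapped. It was 1.49-fold lower in stimulated cells (log2 fold change -0.57, SE 0.19; edgeR, adjusted p = 0.0212). That call was lost without stimulated replicate 2 (edgeR, adjusted p = 0.0805), stimulated replicate 3 (0.0784), unstimulated replicate 1 (0.0685) or unstimulated replicate 2 (0.0533). The lowest and highest adjusted p under any setting run were 0.00079 and 0.0805. On the log2 scale the ratio of Txnip to Arrdc4, each taken per kilobase, averaged 3.29 ± 0.17 in stimulated and 6.73 ± 0.22 in unstimulated cells (SD, n = 3 each), a difference of -3.44. The libraries of the 2 groups did not overlap in this ratio (exact permutation test, two-sided, p = 0.1, adjusted p = 0.1 over 4 such values, the smallest p that 3 against 3 can give).

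Arrdc2 had the smallest fold change of the 7 members. Arrdc2 (ENSMUSG00000002910, chromosome 8, 70835129 to 70839720, minus strand) had 16.6, 17.7 and 21.0 CPM in stimulated libraries, against 18.9, 20.1 and 22.6 CPM in unstimulated ones. The groups overlapped, and the log2 fold change of -0.15 (SE 0.11) did not pass the test (edgeR, adjusted p = 0.239). With library sizes that leave out the 20 most abundant genes it did pass, at -0.31 (edgeR, adjusted p = 0.0458; lowest and highest under any setting run, 0.0458 and 0.575). That scaling moved the median of all tested genes by -0.15. Differences between members' fold changes were tested only for Txnip against Arrdc4 and for Arrb2 against Arrb1, as ratios per kilobase.

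Both beta-arrestins fell after stimulation. Arrb1 (ENSMUSG00000018909, chromosome 7, 99535466 to 99606771, plus strand) had 12.4, 14.3 and 17.3 CPM in stimulated libraries, against 114.8, 120.9 and 94.7 CPM in unstimulated ones. The groups were far apart, and the fall was 7.49-fold (log2 fold change -2.91, SE 0.14; edgeR, adjusted p = 1.9e-07). Of all tested genes, 493 (3.70%) had a lower fold change than Arrb1. Arrb2 (ENSMUSG00000060216, chromosome 11, 70432635 to 70440828, plus strand) had 51.1, 51.6 and 55.2 CPM in stimulated libraries, against 167, 194 and 205 CPM in unstimulated ones. It fell 3.59-fold with no overlap (log2 fold change -1.84, SE 0.089; edgeR, adjusted p = 1.3e-07). Per kilobase, Arrb2 was the more abundant beta-arrestin in all 6 libraries. The log2 ratio of Arrb2 to Arrb1 was 4.02, 3.82 and 3.65 in stimulated libraries and 2.52, 2.66 and 3.09 in unstimulated ones. Every stimulated library had the higher ratio, with a mean difference of 1.07 (exact permutation test, two-sided, p = 0.1, adjusted p = 0.1, the smallest it can give).

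To compare genes with each other, CPM were divided by the length of the union of each gene's exons in kilobases. In stimulated cells the order by CPM per kilobase was Arrb2 (18.5 ± 0.784), Txnip (15.6 ± 3.04), Arrdc1 (12.5 ± 0.610), Arrdc2 (5.70 ± 0.714), Arrdc4 (1.60 ± 0.312), Arrb1 (1.31 ± 0.222) and Arrdc3 (0.969 ± 0.0674). In unstimulated cells it was Txnip (249 ± 12.0), Arrb2 (66.4 ± 6.81), Arrdc1 (38.7 ± 1.20), Arrb1 (9.86 ± 1.23), Arrdc2 (6.35 ± 0.575), Arrdc3 (2.71 ± 0.145) and Arrdc4 (2.37 ± 0.477). Neighbours whose libraries overlapped in CPM per kilobase were Arrb2 and Txnip, Txnip and Arrdc1, and Arrdc4 and Arrb1 in stimulated cells, and Arrdc3 and Arrdc4 in unstimulated cells. With the longest transcript as the length, Arrdc1 (18.9) stood above Txnip (17.3) and Arrb1 (2.06) above Arrdc4 (1.65) in stimulated cells, and the unstimulated order was as before. In unstimulated cells, Txnip stood above 98.8% of tested genes by CPM per kilobase and Arrb2 above 95.1%. After stimulation Txnip stood above 74.3% and Arrb2 above 77.7%, and Arrb1 was above 29.2%, against 66.2% in unstimulated cells.

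Summed over the 7 members, CPM per kilobase came to 57.7, 52.5 and 58.6 in stimulated libraries, against 379, 378 and 369 in unstimulated ones. Txnip made up 32.4%, 24.1% and 26.5% of that sum in stimulated libraries, against 68.7%, 66.1% and 64.2% in unstimulated ones. Both values separated the groups without overlap (exact permutation test, two-sided, p = 0.1 and adjusted p = 0.1 for each, the smallest they can give). The share of Arrb2 was 33.0% ± 1.72 in stimulated and 17.7% ± 2.04 in unstimulated cells (SD, n = 3 each), and that of Arrdc1 was 22.3% ± 1.62 and 10.3% ± 0.465. Arrdc2 made up 10.1% ± 1.13 of the sum in stimulated and 1.69% ± 0.180 in unstimulated cells, while its own level did not pass the test. The arrestin-domain RNA of unstimulated cells was thus mostly Txnip, and that of stimulated cells was spread over Arrb2, Txnip and Arrdc1.

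**Figure D3:**
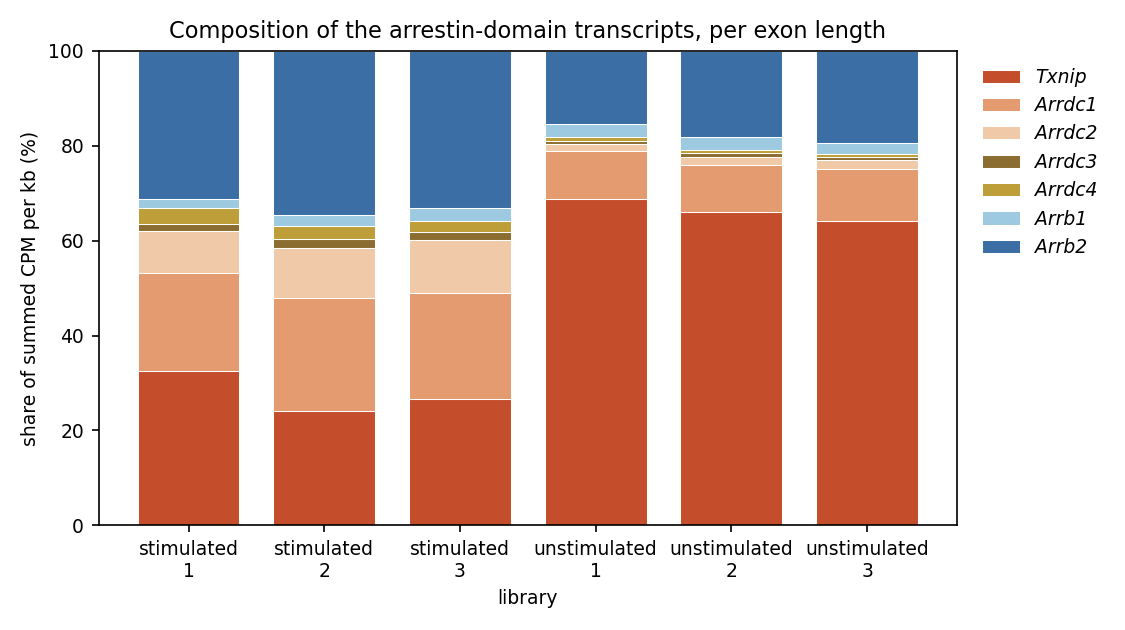
Share of each member in the summed CPM per kilobase of the 7 genes (%), for 3 stimulated libraries on the left and 3 unstimulated libraries on the right. Txnip takes 24.1% to 32.4% in stimulated and 64.2% to 68.7% in unstimulated libraries.

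Genes that act on or with TXNIP were read from lists chosen by role. List counts here and below are to be read beside the shares over all tested genes, 38.4% higher and 39.1% lower. Of 16 tested genes of the thioredoxin system, 10 rose and 3 fell, with a median log2 fold change of 0.80. Thioredoxin itself, Txn1, rose to 209 ± 19.1 CPM in stimulated cells, against 134 ± 20.6 CPM in unstimulated cells (log2 fold change 0.64, SE 0.12; edgeR, adjusted p = 0.00083). The thioredoxin reductase gene Txnrd1 rose 3.60-fold and the sulfiredoxin gene Srxn1, whose enzyme repairs overoxidised peroxiredoxins, 13.2-fold, and the methionine sulfoxide reductase gene Msrb1 and the peroxiredoxin gene Prdx4 fell 5.12-fold and 1.53-fold. Txnip and Txn1 thus moved in opposite directions: per kilobase, Txnip stood at 15.6 CPM and Txn1 at 199 CPM in stimulated cells, and at 249 and 128 CPM in unstimulated cells.

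Of 8 tested glucose transporter and hexokinase genes, 2 rose and 4 fell (median -0.52). The higher count was 3 with DESeq2, limma-voom or the filter of 1 CPM, or without unstimulated replicate 1. Slc2a6 was at 41.5 ± 7.03 CPM in stimulated and 13.4 ± 11.9 CPM in unstimulated cells without passing the test (edgeR, adjusted p = 0.0559). Its unstimulated replicate 1 had 27.1 CPM. Slc2a1 encodes the glucose transporter GLUT1, a cargo of TXNIP. It rose to 105 ± 5.42 CPM in stimulated cells, against 72.6 ± 5.11 CPM in unstimulated cells. The transporter gene Slc2a3 fell to 83.8 ± 10.1 CPM in stimulated cells, against 186 ± 16.4 CPM in unstimulated cells (log2 fold change -1.15). Hexokinase gene Hk2, whose enzyme traps glucose in the cell, rose 13.2-fold, and the transporter genes Slc2a8 and Slc2a9 fell by 3.16 and 2.81 on the log2 scale. Of 10 tested regulators of Txnip, 3 rose and 6 fell (median -0.55). The 6 include Mlxipl, which had 1 to 2 reads per stimulated library and 11 to 13 per unstimulated one. With the filter of 1 CPM in 3 libraries, 5 fell. Mlxip rose to 164 ± 9.80 CPM in stimulated cells, against 104 ± 4.86 CPM in unstimulated cells, and its partner Mlx was at 39.8 ± 1.90 and 42.0 ± 1.78 CPM without passing the test (edgeR, adjusted p = 0.342), although it was called with library size alone or without the 20 most abundant genes in the library sizes (0.0134 at the lowest and 0.72 at the highest under any setting). The kinase gene Akt1, whose product inhibits FOXO factors, rose by 0.59 on the log2 scale. Foxo1 and Foxo3 fell 2.24-fold and 2.07-fold, and Ddit4, whose product binds TXNIP and restrains mTORC1, fell 9.57-fold.

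For the ubiquitin ligases that alpha-arrestins recruit, 7 of the 9 tested genes of the NEDD4 list fell and 2 rose. The lower count was 5 at a threshold of 0.01 and without stimulated replicate 1. It was 6 without stimulated replicate 2 or unstimulated replicate 1 or 2. The 7 that fell were all ligases, with Smurf1 at 32.8 ± 2.08 CPM in stimulated and 48.9 ± 3.52 CPM in unstimulated cells and Itch, which ubiquitylates TXNIP, at 71.4 ± 6.80 and 96.7 ± 5.24 CPM. These falls, 1.23-fold to 1.70-fold, were smaller than those of the called arrestin members other than Arrdc4, a difference that was not tested. The 2 that rose were the adaptors Ndfip1 and Ndfip2, which like alpha-arrestins carry PPxY motifs, by 1.00 and 0.71 on the log2 scale. ESCRT genes, the machinery of vesicle budding with ARRDC1, gave 7 higher and 7 lower of 18 tested. This was near the shares of all tested genes (38.4% and 39.1%). With library size alone, 4 were higher and 8 lower. Vps37a and Chmp4b rose 2.63-fold and 1.73-fold, and Vps37b and Pdcd6ip, which encodes the ESCRT partner ALIX, fell 2.57-fold and 1.96-fold. Tsg101 was 43.1 ± 1.69 CPM in stimulated and 37.5 ± 1.80 CPM in unstimulated cells (log2 fold change 0.20, SE 0.071; edgeR, adjusted p = 0.0265). That call was lost with library size alone (0.441), library sizes without the 20 most abundant genes (0.533) and no filter (0.0511). It was also lost without stimulated replicate 2 (0.0977) or unstimulated replicate 2 (0.116) or 3 (0.0641), and the lowest adjusted p under any setting was 0.0177.

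On the side of the beta-arrestins, 4 of 5 tested receptor kinase genes fell and none rose (median -1.82). Grk2 fell to 204 ± 10.1 CPM in stimulated cells, against 719 ± 42.8 CPM in unstimulated cells, and Grk6 to 129 ± 9.84 CPM, against 469 ± 11.3 CPM, 3.53-fold and 3.63-fold falls of about the size seen for Arrb2. Grk3 had 0.362 CPM in stimulated and 0.360 CPM in unstimulated cells and did not pass the test (edgeR, adjusted p = 0.985). Of 10 coat genes for clathrin and AP-2, 4 were higher and 3 lower, near the shares of all tested genes (38.4% and 39.1%). A difference from the kinases was not tested. With library size alone, 2 coat genes were higher and 4 lower. The higher count was also 2 without stimulated replicate 2 or unstimulated replicate 3. Dynamin Dnm2, which cuts the vesicle off, fell 3.70-fold, and Picalm, a clathrin assembly protein gene, rose 2.28-fold. The light chain gene Cltb rose 2.45-fold and the AP-2 subunit gene Ap2s1 fell 1.96-fold.

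Of 21 G protein-coupled receptor genes of T cells, 11 fell and 8 rose (median -0.93). Over all tested genes, 39.1% were lower and 38.4% higher. The exit receptor S1pr1 fell to 15.3 ± 1.84 CPM in stimulated cells, against 597 CPM in unstimulated cells, a log2 fold change of -5.29, and the chemokine receptor Ccr2 to 15.7 ± 0.387 CPM, against 232 ± 22.4 CPM. The prostaglandin receptor genes Ptger4 and Ptger2 rose 5.42-fold and 3.23-fold. Receptors moved both ways, as did all tested genes, and whether they differed from the beta-arrestins and kinases was not tested. Among other genes with an arrestin fold, 4 of 5 tested fell, with the retromer subunit gene Vps26a at 30.5 ± 1.36 CPM in stimulated and 51.1 ± 0.919 CPM in unstimulated cells and its relative Vps26c 3.91-fold lower. Rgp1 was the 1 that was higher, by 0.23 (SE 0.084; edgeR, adjusted p = 0.0321), and it was not called with library size alone (0.314) or without stimulated replicate 1 (0.0919) or 2 (0.0772) or unstimulated replicate 2 (0.0736) or 3 (0.0949), with 0.00336 and 0.376 as the lowest and highest under any setting. Arrdc5 and the cone arrestin gene Arr3 had 0 reads in all 6 libraries.

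**Figure D4:**
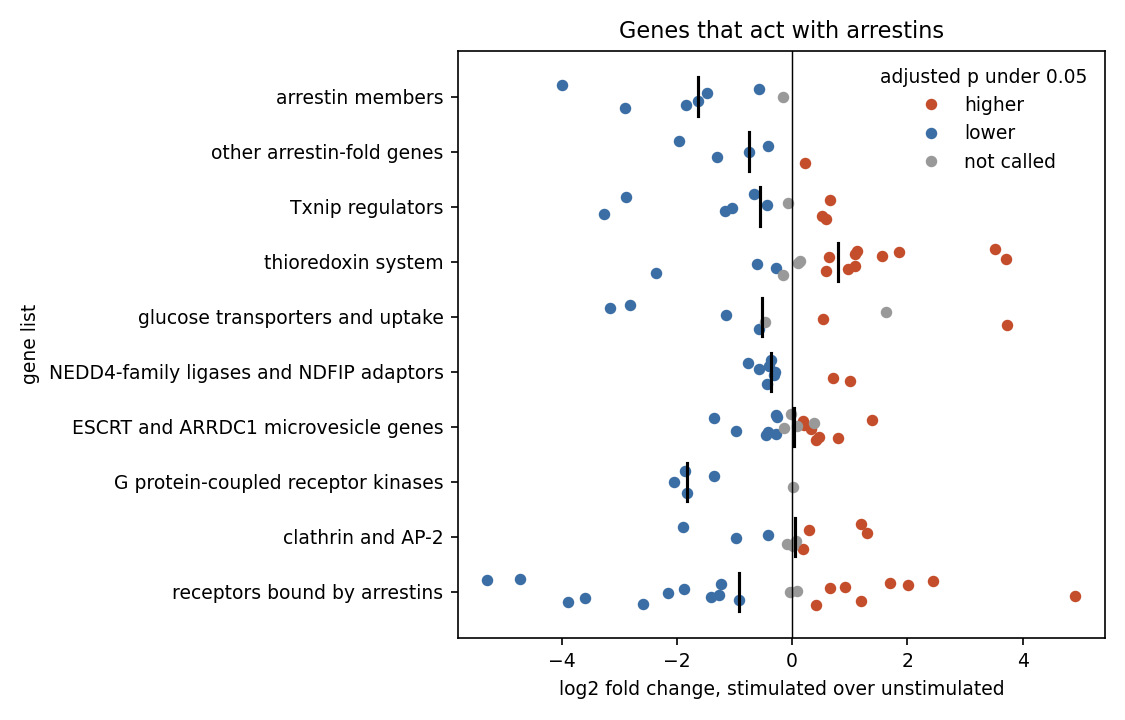
Log2 fold changes (stimulated over unstimulated) of the tested genes in 10 lists, with 1 point per gene coloured by its call at an adjusted p of 0.05 and a black bar at the median of each list. The medians of the arrestin members (-1.63) and the receptor kinases (-1.82) lie to the left of 0, and that of the thioredoxin system (0.80) lies to the right. Single genes of a list lie on the other side of 0 from its median, such as Msrb1. Grk3, which was not called, lies near 0 at 0.01 (SE 0.59).

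Genes whose pattern was closest to a member were ranked by the root mean square distance of 6 log2(CPM + 0.5) values, each centred on the unstimulated mean, among 10425 protein-coding genes of at least 1 CPM. Closest to Txnip were Selenop, the secreted selenoprotein P, at a distance of 0.0948, Acss2, an acetyl-CoA synthetase, at 0.150, and Cdkn2d, a CDK inhibitor, at 0.151. Selenop was at 38.3 ± 5.47 CPM in stimulated and 586 ± 20.5 CPM in unstimulated cells, and Acss2 was at 4.22 ± 0.661 and 70.5 ± 3.87 CPM. Atg2a (0.0758), Bicra and Mr1 were closest to Arrb1, and Ppt2 (0.0363), Dglucy and Tacc3 to Arrb2. Cnppd1 (0.0254), Gmfg and Oard1 were closest to Arrdc1, and Ubald1 (0.0367), Trim59 and Fbxo5 to Arrdc3. Ncf1 (0.0549), Itpripl1 and Avl9 were closest to Arrdc4, and Mief2 (0.0266), Hagh and Nenf to Arrdc2. The nearest gene to Txnip was farther from it than the nearest gene to any other member. With 2 groups and 6 libraries, this distance reflects mostly the size of the change.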

How the data were processed

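The authors deposited 1 table of raw read counts per Ensembl gene for 6 libraries. STAR 2.5.2a, HTSeq, DESeq2 and GRCm38 are named in the submitters' processing notes without a role for each, and no strand setting or annotation release is given in the sources used here. The labels' protocols name a TruSeq kit and column purification of total RNA.

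Groups and replicate numbers came from the titles. The study calls its replicates biological but does not say whether they came from separate mice, so p-values measure the spread between these libraries. Libraries of a group differed beyond counting noise in every pair (chi-square per gene of 9.41 to 37.6). GENCODE M21 matched 48058 of 48440 identifiers and gave symbols, coordinates and exon lengths. Promoters came from RefSeq (GRCm38.p6).

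The counts of the whole table were fitted with edgeR 4.0.16 in R 4.3.3 (TMM, filterByExpr, robust dispersions, group as sole term, two-sided quasi-likelihood test, and glmTreat against a log2 fold change of 1). The procedure was also run on simulated data that left most genes unchanged, while 77.5% of tested genes were called here. It was thus not tested under so broad a change. The SE came from the log2 fold change and its F statistic. Values compared between genes were divided by exon length, and 4 such values were compared by exact permutation over libraries. Alternatives were other scalings (RLE, library size alone, library sizes without the 20 most abundant genes), other filters (none, or at least 1 CPM in 3 libraries), other tools (DESeq2 1.42.0, limma-voom in limma 3.58.1), a block for the replicate number, the omission of single libraries, a threshold of 0.01 and the longest transcript as gene length. Members and gene lists were chosen with earlier results of these data known. The text names all members, up to 2 genes per functional list and direction with the smallest p, and the nearest 3 genes by pattern to each member. It also names further list genes picked for their role or level after their values were seen (among them Txn1, Mlx, Foxo1, Itch, Tsg101 and Grk3). Vps28 and protein sequences were not analysed here.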

Additional observations from a re-analysis of the deposited data

How the results depend on the processing

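Txnip, Arrdc1, Arrdc3, Arrb1 and Arrb2 kept their direction and their call under all alternatives run. Their log2 fold changes ranged from -4.15 to -3.85 for Txnip, -1.78 to -1.59 for Arrdc1, -1.63 to -1.42 for Arrdc3, -3.05 to -2.79 for Arrb1 and -1.99 to -1.79 for Arrb2. Apart from Slc2a3 and Mlxipl, which were not checked, no called gene that the text names changed sign. Grk3, which was not called, was 0.01 with all libraries, -0.12 with library size alone and -0.14 with library sizes without the 20 most abundant genes, and ran from -0.45 to 0.81 on leaving out 1 library. The median of all tested genes was -0.043, but 0.0047 with no filter. Arrdc4 was -0.57 and not called at a threshold of 0.01, and ran from -0.74 to -0.42 on leaving out 1 library. Arrdc2 passed at -0.31 with library sizes without the 20 most abundant genes. In each of these cases the cause was not tested.

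The summed CPM per kilobase differed by -388.6 with the longest transcript as length, against -319 with the union of exons. With library size alone, and with library sizes without the 20 most abundant genes, the lists gave 0 other arrestin-fold genes, 4 ESCRT genes and 2 clathrin and AP-2 genes that were higher. A threshold of 0.01 gave 0 higher arrestin-fold genes and 2 higher clathrin genes, and 0 called among the lower CD8, higher NK and lower erythroid markers. The lower CD8 count was 0 with DESeq2, the higher NK count 0 with no filter and the lower erythroid count 0 with the filter of 1 CPM. Leaving out 1 library gave 0 to 1 for the higher arrestin-fold genes and for the lower CD8, higher NK and lower erythroid markers, and 2 to 3 for the higher clathrin genes, against 4 with all libraries.

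Same-numbered libraries correlated in their deviations from the group means at 0.361, 0.0845 and 0.380. The labels do not state that the numbers pair the libraries, so they were not taken to, although each library correlated best with its own number. With the replicate number as a block, 5326 genes were higher and 5516 lower, against 5113 and 5207, and no call on a member or list count moved by more than 1.5 times. For the 4 length-scaled values, exact sign flips of 3 same-numbered differences, a permutation test, gave p = 0.25 for each, the smallest they can give, so that this test cannot pass a threshold of 0.05. Arrdc3 and Arrdc4 rest on few reads, 159 to 188 and 164 to 223 per stimulated library.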
